A study of Mus musculus with 8 samples.

Results

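Autophagy genes were followed in 3T3-L1 adipocytes, a mouse fibroblast line differentiated into fat cells in culture, after tunicamycin, which blocks N-linked glycosylation and so stresses the endoplasmic reticulum (ER). The set held 34 genes chosen by name: 5 general cargo receptors, 2 mitochondrial receptors, 5 genes of the LC3 family, 4 of the initiation kinase complex, 3 of the lipid kinase complex, 5 for membrane supply, 6 for conjugation and 4 proteases. Of these, 32 had a probe set annotated to them alone, 78 probe sets in all, out of 45101 probe sets and 18194 genes on the array. All 32 were among the 10916 genes bright enough to be tested (mean log2 value of 4.19 or more, about 15.3 intensity units), so none was lost to the filter. Bnip3l was left out because its 3 probe sets also carried the symbol of a pseudogene copy, and Optn is not analysed here. The groups were tunicamycin-exposed cells at 4 h (1 array), 8 h (1 array) and 12 h (2 arrays), against control cells at 4 h (1 array), 8 h (2 arrays) and 12 h (1 array). The labels call replicates biological, name no transgene or deletion, and state no dose of tunicamycin. A culture of 3T3-L1 cells can keep undifferentiated fibroblasts, and lower RNA per cell cannot be told apart from fewer cells of a type in such bulk samples.

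Macroautophagy encloses cytoplasm in a double membrane that then fuses with the lysosome. A kinase complex around ULK1 starts the process, a lipid kinase complex around Beclin 1 marks the new membrane, and conjugation enzymes attach LC3 and GABARAP proteins to it, where cargo receptors such as p62 bind. ER stress is known to engage this pathway, and the receptors are themselves degraded along with their cargo, so RNA levels, the only quantity measured here, do not report on the number of autophagosomes or on flux.

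The treatment showed on every array in genes known to respond to ER stress. Ddit3, which encodes the stress transcription factor CHOP, had a log2 fold change of 3.18 over all times (limma, adjusted p = 4.25e-08). Atf4 and Hspa5, which encode a stress transcription factor and the ER chaperone BiP, had 1.49 and 1.40 (limma, adjusted p = 3.08e-05 and 3.74e-05). The 4 h tunicamycin array stood apart in RNA quality, with a 3' to 5' ratio for beta-actin of 2.81 against 1.51 to 1.82 on the controls. The hybridisation controls BioC and BioB had a ratio of 0.645 to 0.856 on the 12 h arrays and 2.08 to 2.75 on the others, so the called results over all times were also fitted on the 4 h and 8 h arrays alone and on the 12 h arrays alone. Of 9 tested adipocyte markers 0 were higher and 5 lower with tunicamycin. The summed intensity of all 10 with a probe set, tested or not, was 29500 to 39510 on tunicamycin arrays and 35860 to 41390 on controls. Of 10 fibroblast markers 1 was higher and 3 were lower, with sums of 22330 to 27540 on tunicamycin arrays and 28510 to 36250 on controls. Only 2 of 5 macrophage markers, Adgre1 and Csf1r, passed the filter and neither was called. The sums over all 5 were 162 to 346 on tunicamycin arrays and 152 to 407 on controls. No marker of these 3 lists was at 0 on all arrays, and the part of cell makeup or RNA quality in the results below was not tested.

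Most of the autophagy genes moved little, and a few moved in opposite directions. Over all times, 3 of the 32 genes were higher with tunicamycin, namely Sqstm1, Atg13 and Uvrag, and 2 were lower, namely Map1lc3b and Atg4a, at an adjusted p under 0.05 (limma, Benjamini-Hochberg over all tested genes). These 5 of 32 are 15.6%, against 20.7% of all tested genes, with 11.1% of all genes higher and 9.68% lower. The set as a whole was therefore called no more often than the array at large. The median log2 fold change of the 32 genes was -0.01, the same as that of all 10916 genes at this precision, and 16 of the 32 lay above 0. Log2 fold changes in the set ran from -0.40 to 1.02, and 29 of 32 lay within 0.4 of 0. Its interquartile range was -0.18 to 0.17, against -0.26 to 0.26 for all genes. All 5 calls were lost when the deposited scaling of the arrays was kept, with adjusted p from 0.130 to 0.695 and every direction kept. On the 4 h and 8 h arrays alone the log2 fold changes were 0.44 for Atg13 (limma, adjusted p = 0.204), 0.48 for Uvrag (0.0935), -0.28 for Map1lc3b (0.151) and -0.34 for Atg4a (0.193). On the 12 h arrays alone they were 1.08 for Atg13 and 0.62 for Uvrag, both called, and -0.32 for Map1lc3b (limma, adjusted p = 0.130) and -0.50 for Atg4a (0.109), so each kept its direction on both sides of the difference in hybridisation controls.

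**Figure D1:**
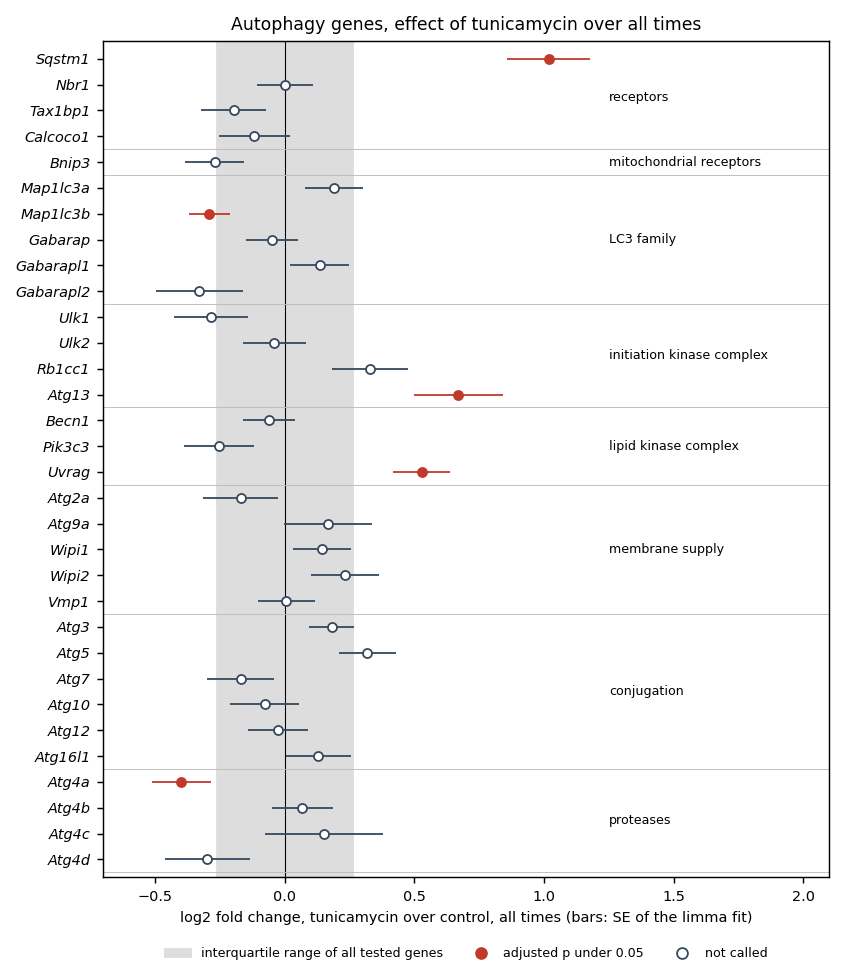
Log2 fold change of tunicamycin over control for each of the 32 autophagy genes over all times (points, with bars for the SE of the limma fit), grouped by role, with called genes filled. The grey band is the interquartile range of all tested genes, -0.26 to 0.26, and Sqstm1 at 1.02, Atg13 at 0.67 and Uvrag at 0.53 lie to its right.

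The proximal promoters of the 3 genes that rose are shown first, because autophagy genes are known to be bound by stress and lysosomal transcription factors, whose short motifs were searched for. Each line gives the 250 bases before the RefSeq start of the gene, 5' to 3' on the gene's strand, in assembly GRCm38.p6, and capitals mark any motif match. Sqstm1 lies on the minus strand of chromosome 11 (chr11:50210821-50211070), Atg13 on the minus strand of chromosome 2 (chr2:91710593-91710842) and Uvrag on the minus strand of chromosome 7 (chr7:99141145-99141394).
Sqstm1: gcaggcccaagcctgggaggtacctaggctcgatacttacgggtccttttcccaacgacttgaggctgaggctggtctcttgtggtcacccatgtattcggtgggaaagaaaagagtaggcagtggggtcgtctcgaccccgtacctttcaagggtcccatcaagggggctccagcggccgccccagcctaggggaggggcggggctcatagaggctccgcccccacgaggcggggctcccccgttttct
Atg13: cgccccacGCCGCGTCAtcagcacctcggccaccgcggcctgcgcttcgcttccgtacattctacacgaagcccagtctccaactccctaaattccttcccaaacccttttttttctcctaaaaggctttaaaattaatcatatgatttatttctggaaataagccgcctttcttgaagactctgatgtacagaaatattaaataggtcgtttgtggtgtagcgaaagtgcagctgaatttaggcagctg
Uvrag: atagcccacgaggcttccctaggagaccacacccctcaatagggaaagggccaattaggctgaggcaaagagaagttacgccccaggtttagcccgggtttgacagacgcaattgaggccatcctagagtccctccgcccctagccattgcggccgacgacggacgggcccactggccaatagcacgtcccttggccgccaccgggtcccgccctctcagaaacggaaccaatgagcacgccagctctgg
Of the 3 windows, only that of Atg13 held a match, the capitals near its left end. It is the reverse complement of TGACNNNGC, the core of the antioxidant response element, which 14.0% of 27025 genes with a window also held.

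Among the 27 autophagy genes with a RefSeq window, 5 held that core, namely Atg13, Map1lc3b, Tax1bp1, Ulk2 and Vmp1. Both strands of each window, from 250 bases before to 50 after the start, were searched. The 27025 genes have 32851 windows, and a gene was counted if any of its windows held a match. The C/EBP-ATF response element TGATGNAA, bound by ATF4 and CHOP, was in 0 of 27 genes and in 4.51% of all genes. The AP-1 site TGANTCA was in 0 of 27 and in 8.97% of all genes, and the unfolded protein response element TGACGTGG was in 0 of 27 and in 0.71% of all genes. The CLEAR core CACGTGAC, bound by TFEB, TFE3 and MITF, was in 2 of 27 genes and in 2.55% of all genes. These were Atg3 on the plus strand (chr16:45158579-45158828), with 2 matches, and Atg7 on the plus strand (chr6:114670846-114671095), with 1, each read here as the reverse complement.
Atg3: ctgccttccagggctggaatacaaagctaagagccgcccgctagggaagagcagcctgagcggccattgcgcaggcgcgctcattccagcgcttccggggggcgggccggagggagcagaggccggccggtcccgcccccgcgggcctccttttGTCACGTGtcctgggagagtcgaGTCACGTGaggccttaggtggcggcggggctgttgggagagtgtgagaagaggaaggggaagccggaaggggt
Atg7: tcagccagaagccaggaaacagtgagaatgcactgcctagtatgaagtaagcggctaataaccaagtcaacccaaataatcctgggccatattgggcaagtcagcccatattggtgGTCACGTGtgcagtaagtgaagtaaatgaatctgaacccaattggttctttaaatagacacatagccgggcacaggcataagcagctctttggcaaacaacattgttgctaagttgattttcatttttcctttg
Neither Atg3 nor Atg7 was called at any time. A match is a description of letters in the window, and its absence says nothing of sites elsewhere.

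Among the cargo receptors, one gene stood out and its relatives did not move with it. Sqstm1, which encodes p62, a receptor that links ubiquitinated cargo to LC3 and also binds the repressor of the oxidative stress factor NRF2, had normalized intensities of 2214 at 4 h, 3773 at 8 h, and 4364 and 4620 at 12 h with tunicamycin, against 1772 at 4 h, 1751 and 1727 at 8 h, and 1653 at 12 h in controls. Every tunicamycin array lay above every control array, and the tunicamycin values were higher at the later times while the controls stayed within a narrow band. The means were 3743 ± 1079 with tunicamycin and 1726 ± 51.8 in controls (SD, n = 4 arrays each, over the 3 times). Sqstm1 rose 2.02-fold over all times, a log2 fold change of 1.02 (SE 0.161, limma, adjusted p = 0.00338), rank 297 of 10916 from the highest.

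The rise of Sqstm1 was not the same at every time. Its log2 fold change was 0.32 at 4 h (SE 0.127, limma, adjusted p = 0.414), 1.12 at 8 h (SE 0.110, limma, adjusted p = 0.000535) and 1.44 at 12 h (SE 0.110, limma, adjusted p = 0.000144). The effect differed between times by limma's F test (adjusted p = 0.0412), the only such call among the 32 genes, where 1.72% of all genes were called. The effect at 12 h exceeded that at 4 h by 1.12 (SE 0.169, limma, adjusted p = 0.0168), and the 8 h effect exceeded the 4 h one by 0.80 (SE 0.169, limma, adjusted p = 0.0868). The F test call was lost when any 1 of the 8 h controls or 12 h tunicamycin arrays was left out (adjusted p from 0.0562 to 0.104), and the call over all times when the 8 h tunicamycin array was left out (log2 fold change 0.96, adjusted p = 0.0514). On the 4 h and 8 h arrays alone the log2 fold change was 0.78 (limma, adjusted p = 0.0536), while the 12 h arrays alone gave 1.44 and a call.

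The other cargo receptors gave no call. Nbr1, a receptor that acts together with p62, averaged 1044 ± 164 with tunicamycin and 1083 ± 89.5 in controls, a log2 fold change of 0.00 (SE 0.108, limma, adjusted p = 0.998). Tax1bp1, a receptor for protein aggregates and bacteria, was at 779 and 1006 with tunicamycin at 12 h against 1236 in the control, and at 1131 and 1192 at 4 h and 8 h against 1142 to 1229 in the controls of those times. Both 12 h tunicamycin arrays lay below their control, while the 8 h array lay between its 2 controls. Its log2 fold change at 12 h was -0.48 (SE 0.166, limma, adjusted p = 0.0758). Calcoco1, which belongs to the same family as the receptor NDP52, had -0.12 over all times (SE 0.136, limma, adjusted p = 0.576).

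Bnip3, a mitochondrial outer membrane protein that binds LC3 in mitophagy and is known as a hypoxia target, was lower at the later times in both groups. It was at 2456 at 4 h, 1380 at 8 h, and 1031 and 1059 at 12 h with tunicamycin, against 2470 at 4 h, 2133 and 2037 at 8 h, and 1154 at 12 h in controls. Each tunicamycin array was below the controls of its own time, but by a clear margin only at 8 h. On the log2 scale the 12 h level was -1.23 relative to 4 h with tunicamycin and -1.10 relative to 4 h in controls, and the change with time was not tested. The log2 fold change was -0.59 at 8 h (SE 0.116, limma, adjusted p = 0.0103), -0.14 at 12 h (SE 0.116, limma, adjusted p = 0.428) and -0.27 over all times (SE 0.114, limma, adjusted p = 0.119). The 8 h call was lost without control 8 h replicate 1 (adjusted p = 0.0664), and a call over all times appeared when either 4 h array was left out.

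**Figure D2:**
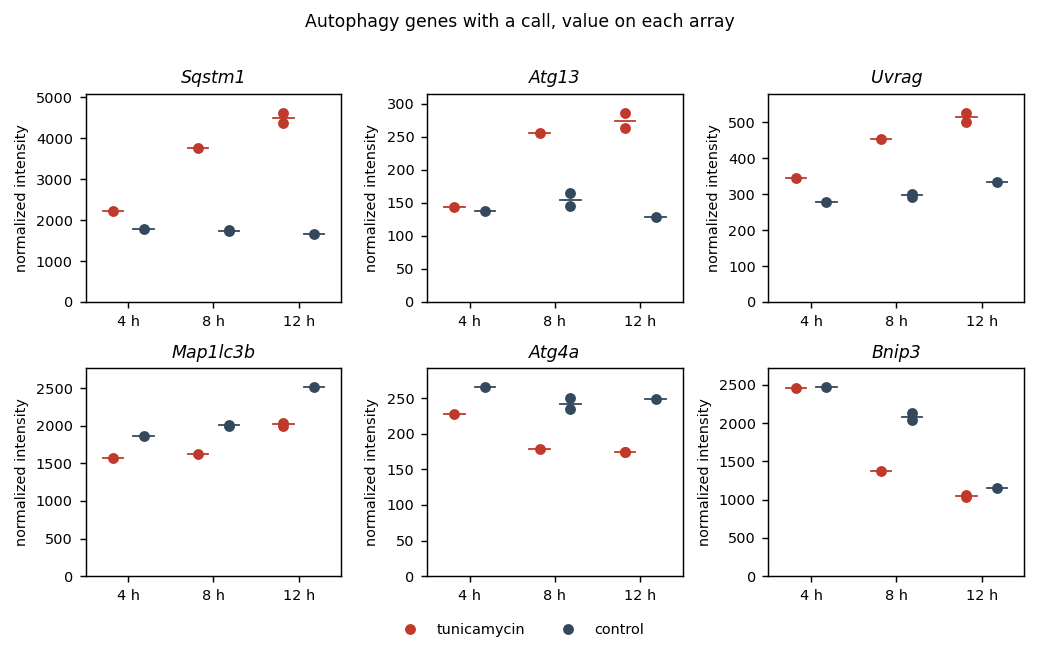
Normalized intensity on each array (points) and group mean (lines) at 4, 8 and 12 h for 6 genes with a call, tunicamycin left of control at each time. Sqstm1 reaches 4364 and 4620 at 12 h with tunicamycin against 1653 in the control, while Bnip3 is lower at the later times in both groups.

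The LC3 and GABARAP genes, whose products are attached to the growing membrane and hold the receptors, did not move as a family. Map1lc3b, the form most used to follow autophagosomes, was at 1573 at 4 h, 1624 at 8 h, and 2002 and 2032 at 12 h with tunicamycin, against 1862 at 4 h, 2007 and 1999 at 8 h, and 2510 at 12 h in controls. Each tunicamycin array lay below the controls of its time by a similar margin, although the 12 h tunicamycin arrays reached the level of the 8 h controls. Map1lc3b fell by 0.29 on the log2 scale over all times (SE 0.0786, limma, adjusted p = 0.0288), with -0.24 at 4 h, -0.30 at 8 h and -0.32 at 12 h, none of which was called at its own time. Leaving out any 1 of the 6 arrays at 8 h or 12 h ended the call (adjusted p from 0.0621 to 0.128). Another 2 bright probe sets of the gene had -0.29 and -0.36, uncalled over all probe sets (limma, adjusted p = 0.0838 and 0.0545).

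Gabarapl2, which encodes GATE-16, lay below its controls at the early times and above at the last. It was at 440 at 4 h, 436 at 8 h, and 780 and 769 at 12 h with tunicamycin, against 656 at 4 h, 718 and 725 at 8 h, and 654 at 12 h in controls. The 4 h and 8 h tunicamycin arrays lay below every control, and both 12 h tunicamycin arrays lay above every control. It fell by 0.72 at 8 h (SE 0.132, limma, adjusted p = 0.00751), and had log2 fold changes of -0.57 at 4 h (SE 0.152, limma, adjusted p = 0.202) and 0.24 at 12 h (SE 0.132, limma, adjusted p = 0.230). The difference between times was not called (limma F test, adjusted p = 0.0677), the 8 h call was lost without control 8 h replicate 2 (adjusted p = 0.0520), and with the mean of its probe sets the 8 h value was -0.37 (adjusted p = 0.365).

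Gabarapl1, a GABARAP relative known as a FOXO target, was at 1118 at 4 h, 1296 at 8 h, and 1797 and 1846 at 12 h with tunicamycin, against 1155 at 4 h, 1289 and 1385 at 8 h, and 1334 at 12 h in controls. Only the 12 h tunicamycin arrays stood above the controls. It rose by 0.45 at 12 h (SE 0.121, limma, adjusted p = 0.0330), a call lost without either 8 h control or either 12 h tunicamycin array (adjusted p from 0.0535 to 0.0665). A second bright probe set of the gene had a log2 fold change of -0.15 over all times, against 0.13 for the one used, both uncalled, and the mean of the probe sets gave 0.28 at 12 h (adjusted p = 0.313).

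The remaining LC3 family genes gave no call. Gabarap was at 2470 at 4 h, 3434 at 8 h, and 4286 and 4168 at 12 h with tunicamycin, against 3231 at 4 h, 3202 and 3483 at 8 h, and 3897 at 12 h in controls. It was the 4 h tunicamycin array that was low, and the 12 h ones were slightly above their control. Its log2 fold change was -0.39 at 4 h (limma, adjusted p = 0.308) and -0.05 over all times. Map1lc3a had 0.19 over all times (SE 0.112, limma, adjusted p = 0.258).

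**Figure D3:**
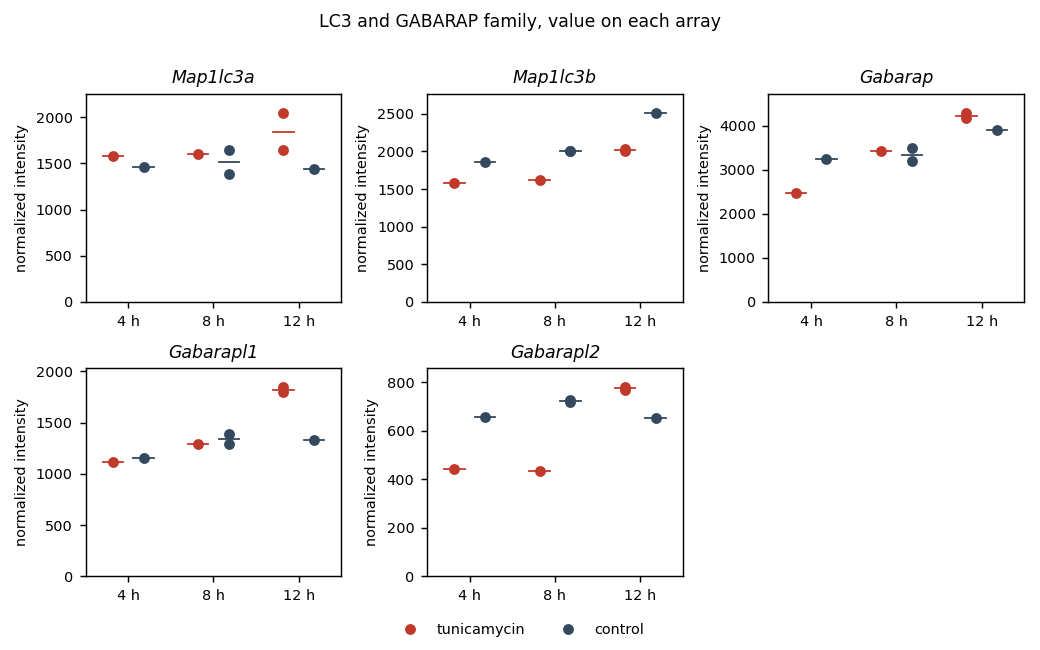
Normalized intensity on each array (points) and group mean (lines) at 4, 8 and 12 h for the 5 LC3 and GABARAP genes, tunicamycin left of control at each time. Gabarapl2 lies at 440 and 436 with tunicamycin at 4 h and 8 h and at 780 and 769 at 12 h, while Map1lc3b stays below the controls of each time.

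In the initiation complex, the adaptor rose and the kinases did not. Atg13, which holds the ULK kinase complex together, was at 144 at 4 h, 256 at 8 h, and 286 and 263 at 12 h with tunicamycin, against 138 at 4 h, 145 and 165 at 8 h, and 128 at 12 h in controls. The 8 h and 12 h tunicamycin arrays lay above every control, and the 4 h array lay barely above its own. Atg13 rose 1.59-fold over all times, a log2 fold change of 0.67 (SE 0.172, limma, adjusted p = 0.0235), with 0.06 at 4 h (SE 0.207), 0.72 at 8 h (SE 0.179, limma, adjusted p = 0.0260) and 1.08 at 12 h (SE 0.179, limma, adjusted p = 0.00407). The effect was not shown to differ between times (limma F test, adjusted p = 0.179).

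The 2 brighter probe sets of Atg13 pointed the same way. Over all probe sets, 2 of its 3 were called, at 0.67 and 0.73 (limma, adjusted p = 0.0365 and 0.0382). The dimmest was at 1.34 (limma, adjusted p = 0.0865), with 14.5 to 22.3 on tunicamycin arrays and 1.18 to 8.03 on controls. It passed the filter only through its tunicamycin arrays, so its direction is not counted as agreement. The gene's call over all times was lost when any 1 of the 6 arrays at 8 h or 12 h was left out (adjusted p from 0.0508 to 0.156), and without the 12 h control the log2 fold change was 0.44. The 8 h call was lost without either 8 h control (adjusted p = 0.133 and 0.0666).

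The kinases of the complex and its scaffold were not called. Ulk1, the initiating kinase, was at 214 at 4 h, 171 at 8 h, and 229 and 196 at 12 h with tunicamycin, against 199 at 4 h, 260 and 249 at 8 h, and 261 at 12 h in controls. It lay below the controls at 8 h and 12 h and above the control at 4 h, with -0.57 at 8 h (SE 0.174, limma, adjusted p = 0.0554) and -0.29 over all times (limma, adjusted p = 0.179), where a call appeared when either 4 h array was left out. Ulk2, its paralog, had -0.04, and Rb1cc1, the scaffold FIP200, had 0.33 (SE 0.147, limma, adjusted p = 0.138).

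In the lipid kinase complex, which makes phosphatidylinositol 3-phosphate on the new membrane, Uvrag rose and the core subunits were not called. Uvrag, a Beclin 1 partner also known for endosome and autophagosome maturation, was at 345 at 4 h, 454 at 8 h, and 527 and 502 at 12 h with tunicamycin, against 278 at 4 h, 293 and 302 at 8 h, and 335 at 12 h in controls. Each tunicamycin array lay above every control, and the control levels were also higher at later times. The means were 457 ± 80.6 with tunicamycin and 302 ± 24.0 in controls (SD, n = 4 arrays each). Uvrag rose 1.44-fold, a log2 fold change of 0.53 (SE 0.110, limma, adjusted p = 0.00999), with 0.31 at 4 h (SE 0.169, limma, adjusted p = 0.567), 0.61 at 8 h (SE 0.146, limma, adjusted p = 0.0230) and 0.62 at 12 h (SE 0.146, limma, adjusted p = 0.0201).

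The call of Uvrag over all times was lost without the 8 h tunicamycin array (adjusted p = 0.0862) or the 12 h control (adjusted p = 0.0573), and its 8 h call without either 8 h control (adjusted p = 0.115 and 0.0951). Becn1, which encodes Beclin 1, averaged 461 ± 26.6 with tunicamycin and 470 ± 19.6 in controls, a log2 fold change of -0.06 (SE 0.0997, limma, adjusted p = 0.708). Its 5 probe sets disagreed, from -0.12 to 0.56 over all times, with none called. At 12 h the probe set used had -0.04 and the others 0.08, 0.34, 0.99 and -0.16. The one with 0.99 was at 275 and 254 with tunicamycin against 132 in the control. Pik3c3, the catalytic subunit VPS34, was below the controls of its time on all 4 tunicamycin arrays, at 93.7, 88.2, 105 and 113 against 112 to 124 over the controls, with a log2 fold change of -0.25 (SE 0.134, limma, adjusted p = 0.204).

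Genes for membrane supply were not called at any time. These are Atg9a, which encodes the membrane protein of the seed vesicles, Atg2a, a lipid transfer protein, Wipi1 and Wipi2, readers of phosphatidylinositol 3-phosphate, and Vmp1, an ER lipid scramblase. Their log2 fold changes over all times ran from -0.17 for Atg2a to 0.23 for Wipi2, whose second probe set was at 0.50 (limma, adjusted p = 0.0606 over all probe sets). At 12 h, Wipi1 had 0.35, Wipi2 0.43, Atg9a 0.48 and Vmp1 0.28, all with adjusted p of 0.125 or more (limma). A second probe set of Vmp1 was at 687 and 920 at 12 h with tunicamycin, against 310 in the control. Its log2 fold change at 12 h was 1.35, and no p-value of single probe sets at single times is given here. Over all times this probe set had 0.41 (SE 0.283, limma, adjusted p = 0.378 over all probe sets).

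The conjugation genes likewise gave no call. Atg5, part of the complex that carries out the last step of LC3 attachment, was at 204 at 4 h, 247 at 8 h, and 248 and 227 at 12 h with tunicamycin, against 169 at 4 h, 202 and 200 at 8 h, and 181 at 12 h in controls. Each tunicamycin array lay above the controls of its time, with a log2 fold change of 0.32 (SE 0.111, limma, adjusted p = 0.0680), while the 2 other probe sets of Atg5 were at 0.06 and 0.09. Atg3, the E2-like enzyme for LC3, was also above the controls of its time on all 4 tunicamycin arrays, at 1327 to 1506 against 1193 to 1322 over all controls, with 0.18 (SE 0.0879, limma, adjusted p = 0.172). Atg7, the E1-like enzyme, had -0.17, Atg10, the E2-like enzyme for Atg12, -0.08, Atg12 itself -0.03 and Atg16l1, which places the complex on the membrane, 0.13.

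Of the 4 cysteine proteases that process LC3 and GABARAP proteins, only Atg4a was called. It was at 227 at 4 h, 179 at 8 h, and 174 and 175 at 12 h with tunicamycin, against 265 at 4 h, 235 and 250 at 8 h, and 248 at 12 h in controls. Every tunicamycin array lay below every control. Atg4a fell by 0.40 over all times (SE 0.114, limma, adjusted p = 0.0353), with -0.22 at 4 h, -0.43 at 8 h and -0.50 at 12 h, none called at its own time. Leaving out any 1 of the 6 arrays at 8 h or 12 h ended the call (adjusted p from 0.0722 to 0.155). Over all probe sets neither of its 2 was called, at -0.40 and -0.45 (limma, adjusted p = 0.0556 and 0.374). Atg4b, Atg4c and Atg4d had 0.07, 0.15 and -0.30, uncalled.

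At single times the set gave 0 calls at 4 h, 5 at 8 h and 4 at 12 h. At 4 h, 0.394% of all genes were called (0.357% higher and 0.0366% lower), from 1 array against 1. The 5th to 95th percentile of the log2 fold changes of all genes was -0.60 to 0.71 at 4 h, against -0.96 to 1.01 at 8 h, and the largest sizes in the set at 4 h were Gabarapl2 at -0.57 and Atg4c at 0.53. At 8 h, 3 of 32 were higher (Sqstm1, Atg13 and Uvrag) and 2 lower (Bnip3 and Gabarapl2), against 9.42% and 8.95% of all genes, 18.4% in all. At 12 h, 4 of 32 were higher (Sqstm1, Atg13, Uvrag and Gabarapl1) and 0 lower by limma, against 10.1% and 10.9% of all genes, 21.0% in all. The median log2 fold change of the 32 genes was -0.05 at 4 h, -0.02 at 8 h and 0.11 at 12 h, against 0.03, -0.02 and -0.01 for all genes at the same times. The comparisons at different times share no arrays, although they share 1 estimate of the spread.

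**Figure D4:**
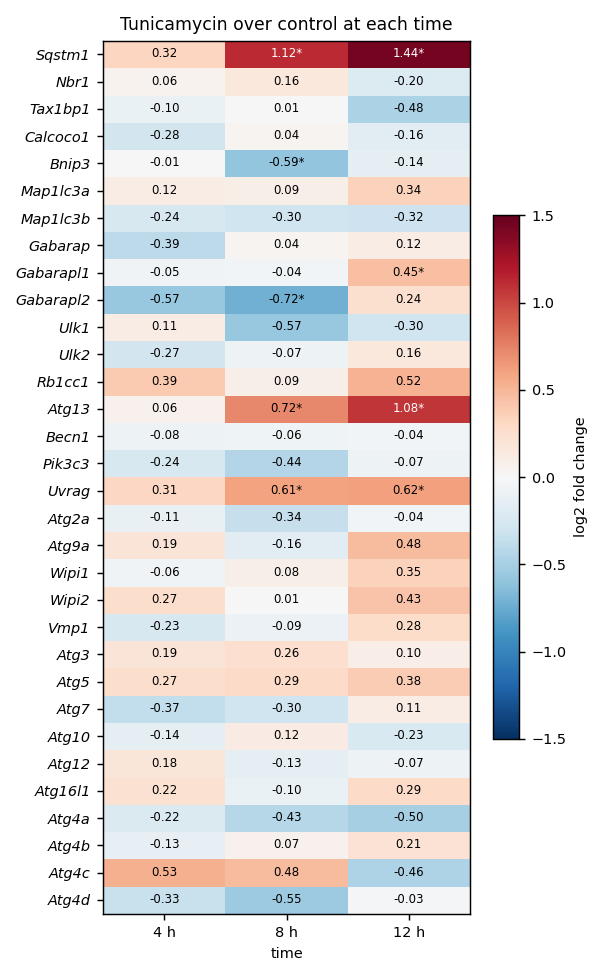
Log2 fold change of tunicamycin over control at 4, 8 and 12 h for the 32 autophagy genes, with asterisks for an adjusted p under 0.05 (limma). Sqstm1 reads 0.32, 1.12 and 1.44 across the 3 times, and Gabarapl2 reads -0.57, -0.72 and 0.24.

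A count without a model also put genes of the set on both sides. In 5 of 32 genes, Sqstm1, Atg13, Uvrag, Atg3 and Atg5, every tunicamycin array lay above each control of its own time, and in 4, Bnip3, Map1lc3b, Pik3c3 and Atg4a, every one lay below. Of all tested genes 20.1% lay above in this way and 18.8% below, 38.9% in all, so the shares in the set did not stand out. A log2 fold change of more than 1.5-fold over all times was reached by 2 of the 32 genes, both upward, which were Sqstm1 and Atg13.

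At the level of probe sets, 69 of the 78 passed the filter and 5 were called, 4 higher and 1 lower, against 13.9% of 20975 probe sets tested (7.13% higher and 6.80% lower). The 4 higher ones were 1 of Sqstm1, 2 of Atg13 and 1 of Uvrag, and the lower one was of Map1lc3b. Of the 22 genes with 2 or more tested probe sets, 14 had all of them on the same side of 0. The second probe set of Sqstm1 was dim and had 0.68 (SE 0.467, limma, adjusted p = 0.374), and Uvrag had only 1.

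**Figure D5:**
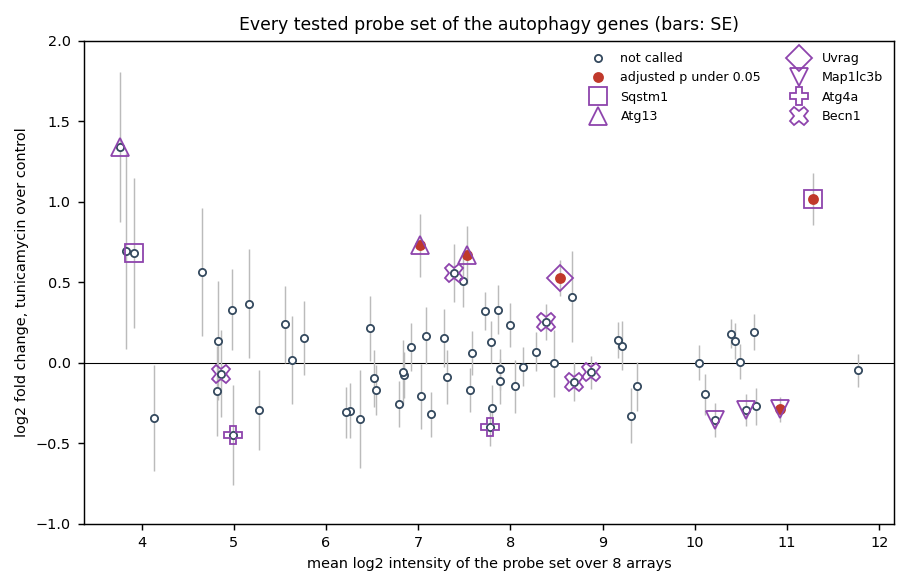
Log2 fold change of tunicamycin over control (bars: SE) against mean log2 intensity over the 8 arrays for the 69 tested probe sets of the autophagy genes, with called ones filled and 6 genes marked by shape. The 2 brighter Atg13 probe sets lie together at 0.67 and 0.73, while the 5 of Becn1 spread from -0.12 to 0.56.

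The authors' deposited table of ratios for each time was made from the same arrays, and so is no independent measurement. Its direction is not stated, and it was read as tunicamycin over control because across the 10916 genes it correlated with the fitted effects at r of 0.816, 0.926 and 0.915 at 4, 8 and 12 h, genes not being independent replicates. In the authors' deposited table the log10 ratio of Sqstm1 was 0.12 at 4 h, 0.36 at 8 h and 0.47 at 12 h. The authors' deposited table gave Atg13 0.05, 0.23 and 0.39, and Uvrag 0.10, 0.19 and 0.17, at the same times. Map1lc3b was at -0.08, -0.09 and -0.09 in the authors' deposited table, and Atg4a at -0.07, -0.08 and -0.15. For genes called only at 1 time, the authors' deposited table gave Bnip3 0.02, -0.18 and 0.03. It gave Gabarapl2 -0.27, -0.21 and 0.08, and Gabarapl1 -0.0008, 0.01 and 0.16. Across the 32 genes, the sign in the authors' deposited table was that of the fitted effect in 28 at 4 h, 31 at 8 h and 28 at 12 h.

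Other genes of the pathway, listed by role, also split between no change and a few single moves. Of 27 tested genes for the rest of the autophagosome and its fusion with the lysosome, 3 were higher and 1 lower, with a median log2 fold change of -0.02. That is 14.8% called, against 20.7% of all tested genes (11.1% higher and 9.68% lower). Epg5, a tether for that fusion, was at 170, 248, 192 and 193 with tunicamycin in order of time, against 127, 104, 140 and 129 in controls, and rose by 0.69 (SE 0.156, limma, adjusted p = 0.0142). Trp53inp2, a scaffold that binds LC3, rose by 0.56 (SE 0.157, limma, adjusted p = 0.0337), with -0.04 at 4 h and 0.93 at 12 h. Sh3glb1, the membrane-bending protein Bif-1 that binds UVRAG, rose by 0.39 (SE 0.0929, limma, adjusted p = 0.0182), and Vamp8, the lysosomal fusion SNARE, fell by 0.48 (SE 0.105, limma, adjusted p = 0.0126).

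These calls were also lost in some fits with 1 array left out. Such fits called fewer genes of the whole array too. The share was 20.7% of all tested genes with every array kept. It was 8.64% when the 12 h control was dropped, and 3.45% when the 8 h tunicamycin array was dropped. In the latter fit the log2 fold change was 0.50 for Epg5 (adjusted p = 0.135) and 0.51 for Trp53inp2 (0.176). It was 0.38 for Sh3glb1 (0.103) and -0.44 for Vamp8 (0.0935). Whether the calls depend on that array itself was not tested. Without the 12 h control the log2 fold change was 0.34 for Trp53inp2 (limma, adjusted p = 0.217). It was 0.35 for Sh3glb1 (0.0890) and -0.46 for Vamp8 (0.0579). Sh3glb1 also lost its call without control 8 h replicate 2 (adjusted p = 0.0570), and Trp53inp2 without either 8 h control or either 12 h tunicamycin array (up to 0.0737). With the mean of its probe sets Sh3glb1 was at 0.17 (adjusted p = 0.286). The same setting gave 0.58 for Trp53inp2 (limma, adjusted p = 0.0942). With the deposited scaling all 4 lost their calls, at 0.39 for Epg5 (adjusted p = 0.503), 0.27 for Trp53inp2 (0.639), 0.05 for Sh3glb1 (0.937) and -0.75 for Vamp8 (0.139). On the 4 h and 8 h arrays alone the adjusted p was 0.0798 for Epg5, 0.25 for Trp53inp2, 0.126 for Sh3glb1 and 0.0881 for Vamp8, and on the 12 h arrays alone it was 0.0857 for Epg5, 0.0544 for Sh3glb1 and 0.0786 for Vamp8, while Trp53inp2 was called.

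Among 16 tested receptors for the ER, mitochondria, ferritin, glycogen and aggregates, 1 was higher and 1 lower, with a median of -0.03. That is 12.5% called, against 20.7% of all tested genes. Stbd1, which binds glycogen and is proposed to bring it to autophagosomes, was at 21.9 at 4 h, 84.2 at 8 h, and 174 and 139 at 12 h with tunicamycin, against 9.06 at 4 h, 6.80 and 11.6 at 8 h, and 10.6 at 12 h in controls. Every tunicamycin array lay above every control. The controls were all dim and below the filter's 15.3 intensity units. The gene was therefore tested only because its tunicamycin arrays were brighter, and its call is to be read with that limit. Stbd1 rose by 2.62 (SE 0.406, limma, adjusted p = 0.00302), a fold change that the added constant of 2.96 intensity units understates at such levels. Its call was lost without the 8 h tunicamycin array (2.48, adjusted p = 0.0519). Retreg3, an ER-phagy receptor, fell by 0.60 (SE 0.151, limma, adjusted p = 0.0209), a call lost without control 8 h replicate 1, the 8 h tunicamycin array or tunicamycin 12 h replicate 2 (adjusted p of 0.0542, 0.131 and 0.0511), and the mean of its probe sets gave -0.24. With the deposited scaling Retreg3 was at -0.90 (adjusted p = 0.0657) and on the 12 h arrays alone at -0.34 (adjusted p = 0.354), both uncalled, and on the 4 h and 8 h arrays alone Stbd1 was at 2.09, uncalled (adjusted p = 0.0621). Retreg1, the first ER-phagy receptor described in mammals, was below the filter.

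Of 29 tested upstream regulators, 3 were higher and 1 lower, with a median of -0.02. That is 13.8% called, against 20.7% of all tested genes. Sesn2, a stress-induced inhibitor of the growth kinase complex mTORC1 and a known ATF4 target, was at 156, 196, 275 and 200 with tunicamycin in order of time, against 74.9, 101, 92.5 and 109 in controls. Every tunicamycin array lay above every control, and Sesn2 rose by 1.04 (SE 0.140, limma, adjusted p = 0.00171). Its relative Sesn3, a FOXO target, went the other way and fell by 0.78 (SE 0.181, limma, adjusted p = 0.0155), with -0.01 at 4 h and -1.18 at 12 h. Mitf and Tfe3, transcription factors that bind the CLEAR element, rose by 0.68 (SE 0.159, limma, adjusted p = 0.0163) and 0.43 (SE 0.114, limma, adjusted p = 0.0280).

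Sesn2 kept its call whichever array was left out, but lost it with the deposited scaling (0.74, adjusted p = 0.152), as did Mitf (0.39, adjusted p = 0.501) and Tfe3 (0.14, adjusted p = 0.833). Without the 8 h tunicamycin array the adjusted p was 0.128 for Sesn3, 0.149 for Mitf and 0.182 for Tfe3, and without the 12 h control it was 0.113 for Sesn3, 0.0618 for Mitf and 0.101 for Tfe3. Tfe3 also lost its call without either 8 h control or without tunicamycin 12 h replicate 1 (adjusted p from 0.0658 to 0.0742). On the 4 h and 8 h arrays alone the adjusted p was 0.158 for Sesn3, 0.10 for Mitf and 0.138 for Tfe3. On the 12 h arrays alone it was 0.0580 for Mitf and 0.123 for Tfe3, while Sesn3 was called, and Sesn2 was called on both parts. Mitf also lost its call with the mean of its probe sets (0.47, limma, adjusted p = 0.206).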

How the data were processed

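RNA of 8 cultures was measured on Affymetrix arrays, 1 array each. The deposited matrix holds 1 linear intensity per probe set and array, per the file headers; the software and the scaling behind it are stated in no source used here. The authors also deposited a table for each time, with the log10 ratio of every probe set and its p-value, processed with Rosetta Resolver per the names of the deposited tables, with settings that no source states; they entered no test. Columns matched to no sample numbered 0, and identical arrays 0.

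Of 45101 probe sets, 34958 carried 1 gene symbol in the platform annotation, 932 several and 9211 none; the last 2 kinds were not used by name. Gene IDs of 34754 were found in RefSeq (GRCm38.p6). Arrays whose medians differed by 1.20 (log2; limit 0.3) were quantile normalized, values below 0 set to 0, and log2(value + 2.96) taken, where 2.96 is the 10th percentile of positive values; the constant makes folds of dim genes too small. Each gene was its brightest probe set, and 10916 genes at or above the 40th percentile were tested.

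Tests used limma 3.58.1 in R 4.3.3 with an intensity trend, checked on simulated data, with Benjamini-Hochberg adjustment over all genes and calls at 0.05, two-sided. The effect over all times was the treatment term beside time (4 residual and 5.89 prior degrees of freedom); its spread also holds differences between times. Effects at single times came from group means (2 residual, 6.37 prior), so lone arrays are assumed to vary like the 8 h controls and 12 h tunicamycin arrays. The number of arrays limits the precision. Plots were drawn with matplotlib 3.10.9 (Python 3.11.15).

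The genes and lists were chosen with earlier results of these data known. Every gene of the set called over all times, at a time or by the F test is named with its values, others by role; of each further list, up to 6 called genes with the largest change. Alternatives were other scalings, pseudocounts, filters, variance models, probe set rules, a replicate block, parts of the arrays and each array left out.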

Additional observations from a re-analysis of the deposited data

Results flagged for a closer look

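Among the autophagy genes and the 3 further pathway lists, in 2 genes the effect of tunicamycin differed between times by limma's F test. For Sqstm1 the adjusted p was 0.0412, with log2 fold changes of 0.32, 1.12 and 1.44 at 4, 8 and 12 h. Tmem41b, an ER lipid scramblase related to Vmp1 that belongs to the list of other autophagosome genes, had an adjusted p of 0.0478, with log2 fold changes of -0.09, 0.41 and 1.29, and is named here after its values were seen. Its intensities were 385 at 4 h, 593 at 8 h, and 939 and 923 at 12 h with tunicamycin, against 411 at 4 h, 483 and 412 at 8 h, and 380 at 12 h in controls. The 12 h tunicamycin arrays stood far above every control, while over all times Tmem41b was not called (log2 fold change 0.59, SE 0.206, limma, adjusted p = 0.0693). Tmem41b has 6 probe sets, of which only the brightest is described. Its F test was not repeated under other settings. The part of RNA quality on the 4 h tunicamycin array in both results was not tested.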

How the results depend on the processing

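Over all times the genes higher with tunicamycin numbered 3, and 0 with the deposited scaling or on the 4 h and 8 h arrays alone, 3 on the 12 h arrays alone and 3 with the replicate block of the paired fit. With no filter they were 2 (Uvrag and Atg5), with no trend 2 (Sqstm1 and Uvrag) and with the mean of probe sets 2 (Atg13 and Uvrag). Sqstm1 had an adjusted p of 0.0678 with no filter and was at 0.85 (0.0528) with the mean of its probe sets, and Atg13 had 0.124 with no filter and 0.0575 with no trend. They numbered 0 to 3 when single arrays were left out (0 without the 8 h tunicamycin array, 1, Sqstm1, without the 12 h control). The lower genes numbered 2 (Map1lc3b and Atg4a) and 0 with the deposited scaling, no intensity trend, the mean of probe sets, the replicate block or the 12 h arrays alone, 1 (Map1lc3b) with median centring and 1, another gene (Gabarapl2), on the 4 h and 8 h arrays alone. With single arrays left out they numbered 0 to 4: Gabarapl2 alone without the 12 h control, and Map1lc3b, Atg4a, Bnip3 and Ulk1 without either 4 h array. At 4 h the count stayed 0 in every setting tried. At 8 h the count of higher genes, 3, became 0 with the deposited scaling, 1 with median centring, no filter, no trend or the mean of probe sets, and 1 to 3 with arrays left out. That of lower genes, 2, became 0 with the deposited scaling, median centring or no trend, 1 with no filter or the mean of probe sets, and 1 to 3 with arrays left out. At 12 h the count of higher genes, 4, became 0 with the deposited scaling, 2 with median centring, no filter or no trend, and 3 to 4 with arrays left out, and that of lower genes 0 to 1. The count of genes with a difference between times, 1, became 0 with the deposited scaling, median centring, no filter, no trend or the mean of probe sets, and when any 1 of the 8 h controls or 12 h tunicamycin arrays was left out; the other arrays were not left out for this test. The counts of probe sets, 4 higher and 1 lower, became 0 and 0 with the deposited scaling or no filter, 2 and 0 with median centring and 1 and 0 with no trend. The replicate numbers of the labels were not shown to pair arrays (r = 0.03 between the replicate differences of the 2 groups with 2 arrays); with them as a replicate block, Map1lc3b, Atg4a and Trp53inp2 had adjusted p of 0.0551, 0.0616 and 0.0512. No direction of a called value reversed. Median log2 fold changes with the deposited scaling were -0.32 for the 32 genes and -0.31 for all, so changes there are to be read against that shift, and the share of all genes called was 7.79%. Without the 8 h tunicamycin array that share was 3.45%. It was 8.64% when the 12 h control was dropped, and 4.46% on the 4 h and 8 h arrays alone. Dropping the 4 h control gave 27.0%, and dropping the 4 h tunicamycin array gave 27.1%. With every array kept it was 20.7%, so the counts above are to be read against these shares. The fit without a filter tested 18194 genes and called 3.18%. The cause of the other losses and of the added calls was not tested.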
